A study of Mus musculus with 7 samples.

Results

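Proteasome subunits, ubiquitin-conjugating enzymes and ubiquitin-specific proteases were followed in an ATAC-seq comparison of T follicular helper (Tfh) cells, CD4 T cells that give help to germinal centre B cells. ATAC-seq uses a transposase to cut and tag open DNA, so that fragments pile up where chromatin is accessible. Members were the protein-coding genes whose name in the peak list began with Psma, Psmb, Psmc or Psmd (proteasome), Ube2 (conjugating enzymes) or Usp (proteases), without Usp18. There were 49 such genes with 52 peaks, among 4663 protein-coding gene names and 6395 peaks in all. Of the 49, 13 carried a proteasome name, 17 a Ube2 name and 19 a Usp name.

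The cells came from spleens of B6/Sle1.Yaa mice, a strain prone to lupus-like disease that all groups shared, at 5 months of age. Mice received anti-IFNAR1 antibody, directed at a subunit of the type I interferon receptor (4 samples, whose treatment label spells the target IFNA1), or control anti-rat IgG (3 samples), 2 times a week for 4 weeks. Cells were sorted as CD4+ CD44+ GITR- cells, PSGL-1 low, CXCR5 high and PD-1 high, and the labels do not say how many mice stood behind a sample. The list holds sites where coverage on the anti-IFNAR1 side exceeded the control IgG background. Sites that were lower on the anti-IFNAR1 side and values of single samples were not analysed here. A spread between mice therefore stands beside none of the values.

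From the step of the pileup values, the anti-IFNAR1 side of the comparison was 3.54 times as deep as the control IgG side. If all samples entered at equal depth, the ratio would be 1.33, but which libraries entered is not stated. The part of this gap in depth in the results was not tested. The local control background, in fragments, is called the control level. Pileup is the number of fragments over the peak's summit, scaled down on the anti-IFNAR1 side to the control depth. Fold is the pileup over the control level, with 1 added on both sides. Pileup, fold and q were taken from the authors' deposited table throughout, and the list ends at a q of 0.0496. Of 12 markers of Tfh and CD4 T cells, 8 had a listed peak, Cd4, Bcl6 and Pdcd1 among them. Cxcr5, Il21, Icos and Cd3g had none. None of 6 markers of B cells or of 6 markers of CD8 T and NK cells was listed. Of 6 myeloid markers, 1 was listed, Cd14. The share over all protein-coding genes was 21.1%. A listed peak means more coverage on the anti-IFNAR1 side, so these counts do not show which cells were present.

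The 26S proteasome degrades proteins tagged with ubiquitin. Its 20S core, 2 outer rings of alpha subunits around 2 inner rings of beta subunits, holds the proteolytic sites, and the 19S particle binds, unfolds and feeds in the substrate. Ubiquitin passes from an E1 enzyme to an E2 conjugating enzyme and, with an E3 ligase, to the substrate, while deubiquitinases such as the Usp proteases take it off again. Interferons induce Psmb8, Psmb9 and Psmb10, which replace catalytic beta subunits to form the immunoproteasome, and also the E2 and the protease of the ubiquitin-like modifier ISG15.

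Promoter windows are shown for the member with the smallest q of each class and for the listed immunoproteasome gene Psmb8, because they show the start regions that go with the top-ranked peaks. Each runs from 250 bases before to 50 after the RefSeq start (GRCm38.p6, the build of mm10), lies in full or, for Ube2m, in 268 of its bases under the listed peak, and is written 5′ to 3′ on the gene's strand. Capitals mark matches to the motifs searched on both strands. The motifs were TGACNNNGC (the core of the antioxidant response element), CCGGAAG (ETS), CCAAT (NF-Y), the NRF1 palindrome (GCGCA followed directly by its reverse complement), GGGCGG (SP), TGACGTCA (CRE), the interferon-stimulated response element (GAAA blocks with 2 bases between them) and TTCNNNGAA (GAS, the STAT element). No marked match overlaps another.
Psmb3, chr11:97703184-97703483, plus strand: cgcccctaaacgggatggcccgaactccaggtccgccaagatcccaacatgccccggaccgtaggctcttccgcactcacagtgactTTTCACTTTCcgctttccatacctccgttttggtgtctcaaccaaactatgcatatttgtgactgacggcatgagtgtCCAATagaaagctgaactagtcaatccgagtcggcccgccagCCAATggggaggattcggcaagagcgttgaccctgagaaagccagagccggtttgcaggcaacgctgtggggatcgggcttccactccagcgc
Ube2m, chr7:13038226-13038525, minus strand: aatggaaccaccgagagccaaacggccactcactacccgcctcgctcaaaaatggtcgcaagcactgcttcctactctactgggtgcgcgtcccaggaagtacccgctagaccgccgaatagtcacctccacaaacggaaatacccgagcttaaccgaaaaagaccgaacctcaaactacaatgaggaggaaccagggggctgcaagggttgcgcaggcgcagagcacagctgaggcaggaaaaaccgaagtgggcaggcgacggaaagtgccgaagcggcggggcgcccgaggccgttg
Usp38, chr8:81014857-81015156, minus strand: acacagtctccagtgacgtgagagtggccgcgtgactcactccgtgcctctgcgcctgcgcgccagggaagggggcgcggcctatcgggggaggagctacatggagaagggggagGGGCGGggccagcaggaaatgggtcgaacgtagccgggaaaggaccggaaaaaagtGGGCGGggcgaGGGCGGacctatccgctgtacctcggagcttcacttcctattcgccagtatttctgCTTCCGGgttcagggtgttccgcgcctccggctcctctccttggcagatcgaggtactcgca
Psmb8, chr17:34197945-34198244, plus strand: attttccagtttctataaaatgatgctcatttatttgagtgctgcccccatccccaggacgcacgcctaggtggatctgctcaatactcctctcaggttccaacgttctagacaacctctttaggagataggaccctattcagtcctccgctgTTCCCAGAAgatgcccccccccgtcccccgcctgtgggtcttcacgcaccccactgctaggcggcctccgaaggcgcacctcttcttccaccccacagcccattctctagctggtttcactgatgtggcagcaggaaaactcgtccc

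The Psmb3 window held 2 CCAAT matches and, on the minus strand, 1 match to the short pattern of the interferon-stimulated response element. The Usp38 window held 3 GGGCGG matches and 1 CCGGAAG match. The Psmb8 window held 1 TTCNNNGAA match, a motif found in 8.92% of all 17492 protein-coding genes with a promoter in the table. The pattern of the interferon-stimulated response element was found in 3.94% of them, CCAAT in 42.3%, GGGCGG in 49.2% and CCGGAAG in 12.9%. The other shares were 14.8% for TGACNNNGC, 2.54% for TGACGTCA and 1.47% for the NRF1 palindrome. The Ube2m window shown held none of the 8 motifs, while among all 3 windows of Ube2m in the table GGGCGG was found. The listed peak of Psmb10 did not reach the window at its RefSeq start, so that window is not shown.

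Members were listed more often than protein-coding genes as a whole. Of the 133 RefSeq protein-coding genes with these names, 49 (36.8%, Wilson 95% interval 29.1 to 45.3) had a listed peak, against 21.1% of all 21900 protein-coding genes. That total includes genes of every tissue, and the members were chosen with earlier results of these data known. The Ube2 genes had the highest share of the 3 classes, 17 of 37 (45.9%, 31 to 61.6). The Usp genes followed with 19 of 56 (33.9%, 22.9 to 47) and the proteasome names with 13 of 40 (32.5%, 20.1 to 48). The intervals of the 3 classes overlap, and that of the proteasome names includes the share of all genes. They cover counting error over genes of 1 pooled list, not error between mice, and no test was made. The order of the classes depended on the count. With a listed peak within 1 kb of a RefSeq start, it was 46.7% of 30 Ube2 genes, 42.4% of 33 proteasome names and 27.9% of 43 Usp genes. The 23.4% of all genes with a start then lay inside the Usp interval (16.7 to 42.7) and below that of the proteasome names (27.2 to 59.2).

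The names are not all what the prefix says. Psmc3ip encodes a meiotic recombination factor, Usp6nl a GTPase-activating protein for a Rab GTPase, and Uspl1 a protease of the modifier SUMO. All of these were listed. Without them, without the unlisted Ube2cbp, a ligase gene, and without the 5 multicopy Usp17l genes, none of which was listed, the share was 46 of 124 (37.1%).

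**Figure D1:**
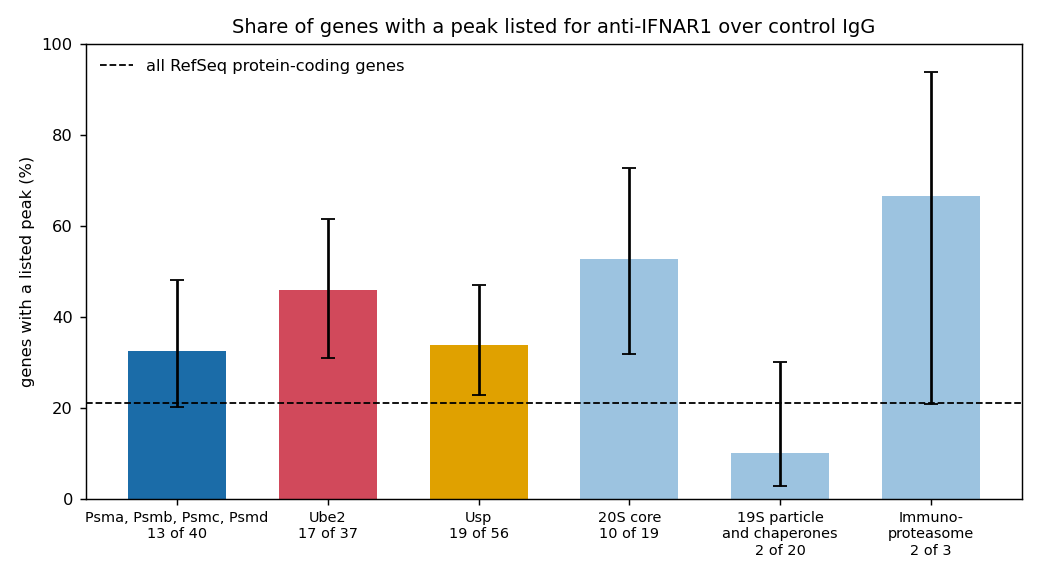
Bars give the percent of RefSeq protein-coding genes with at least 1 peak listed for anti-IFNAR1 over control IgG, for the 3 name classes and for groups of proteasome genes. Error bars are Wilson 95% intervals of the counting error, and the dashed line marks all protein-coding genes (21.1%). By name, the 20S core had 10 of 19 genes listed and the 19S particle with its chaperones 2 of 20. By position within 1 kb of a start, the counts were 9 and 4 among the fewer genes with a start in the table.

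Within the proteasome, the genes listed by name were mainly those of the 20S core. Of 19 core genes, 10 (52.6%, Wilson 95% interval 31.7 to 72.7) were listed. Of 20 genes for the 19S particle and its assembly chaperones, 2 (10%, 2.79 to 30.1) were. The share over all protein-coding genes, 21.1%, lies inside that interval. Of the 6 ATPases of the 19S base, Psmc1 to Psmc6, none was listed under its own name. By position, only genes with a start in the table could count. The core genes Psma8, Psmb1, Psmb2 and Psmb7 had none, nor did the 19S genes Psmc3, Psmd3 and Psmd7. Of the others, 9 core genes and 4 genes of the 19S particle and chaperones had a listed peak of any name within 1 kb. Over all protein-coding genes with a start, 23.4% had one. The 19S genes counted by position included Psmc2 and Psmd13, whose peaks bore the names of other genes. The split was thus narrower by position than by name. It was seen in the counts and no test was made of it.

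Psmb3, a structural subunit of the beta ring, had the smallest q of the proteasome genes. It held 76 anti-IFNAR1 fragments against a control level of 2.12 control fragments, a pileup of 21.48, a fold of 7.2 (q of 5.2e-11). Scaled for depth and with no pseudocount, coverage was 10.1 times the control background (exact 95% interval 5.06 to 23). Psmb3 also had the highest pileup of the class. The peak spanned 97702588 to 97703594 on chromosome 11 with its summit 390 bp upstream of the RefSeq start.

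Of the catalytic subunits of the standard core, Psmb6 was listed, and Psmb5 and Psmb7 were not. Psmb6 encodes the caspase-like subunit that Psmb9 replaces in the immunoproteasome. Its peak held 25 anti-IFNAR1 fragments, and its control background was the genome-wide rate of 0.132 fragments, the lowest value the caller uses. The fold was 7.13, and the q was 2.27e-08. The pileup of 7.07 was the second lowest of the proteasome peaks.

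The alpha ring had 4 of 8 genes listed, beside 21.1% of all protein-coding genes. Their peaks all lay in the transcription start site (TSS) section, which held 81.4% of peaks of protein-coding genes. No test was made of this group or of the other small groups named below. Psma1 had 49 anti-IFNAR1 fragments against a control level of 1.18, a fold of 6.81 (q of 2.68e-07). Psma7 had a fold of 4.9, Psma4 5.39 and Psma5 3.73. Psma8, the testis form, was not listed, nor were Psma2, Psma3 and Psma6. The structural beta subunits had 3 of 4 listed, with folds of 6.31 at Psmb4 and 5.02 at Psmb2 beside Psmb3.

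Of the 3 immunoproteasome genes, Psmb8 and Psmb10 were listed and Psmb9 was not. Psmb10 had 44 anti-IFNAR1 fragments against a control level of 0.708, from 3 control fragments in 1 kb around the summit. Its fold of 7.87 was the highest of the proteasome genes, with a q of 1.14e-08. The ratio without the pseudocount was 17.6 (exact 95% interval 5.63 to 88.4). This peak, from 105937253 to 105938076 on chromosome 8, had its summit 743 bp downstream of the RefSeq start, and the file assigned it to the start of a processed transcript of the gene.

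Psmb8 had 2 peaks on chromosome 17. The one at its RefSeq start, from 34197800 to 34198339, held 54 anti-IFNAR1 fragments against a control level of 1.89, with a fold of 5.63 (q of 1.09e-06). The other, from 34196696 to 34197410, lay upstream with its summit 790 bp before the start and held 28 fragments over 1.18, with a fold of 4.09 (q of 0.0261). The start of Psmb9, the third immunoproteasome gene, lay 9366 bp from this upstream peak, which was the listed peak nearest to it. Of the peptide transporter genes of the same cluster, Tap2 was listed with a fold of 4.74 and Tap1 was not. Psmb11, the subunit of the thymoproteasome in thymic cortical epithelium, was not listed, and its start lay 60632 bp from the nearest listed peak.

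The listed 19S genes were Psmd4, a receptor for ubiquitin chains, and Psmd11, a subunit at the contact with the core. Psmd4 had 47 anti-IFNAR1 fragments against 3 control fragments, a fold of 3.57 (q of 0.00415). Psmd11 had 51 against 4, a fold of 3.08 (q of 0.0163). These were the lowest folds of the proteasome names, followed by the core gene Psma5 with 3.73 and by Psmc3ip with 3.81. Some 19S genes without a peak of their own name had one at their start all the same. The start of the ATPase gene Psmc2 lay 63 bp from the peak named for Dnajc2 (fold 5.87), and that of Psmd13 lay 72 bp from the peak named for Sirt3 (fold 3.92). The start of the conjugating enzyme gene Ube2h lay 175 bp from the peak named for a noncoding transcript, 1700095J07Rik (fold 3.51). These were the 3 of 68 unlisted members with a start in the table that had a listed peak within 1 kb of it.

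Among the conjugating enzymes, Ube2m stood highest. Ube2m carries the ubiquitin-like modifier NEDD8 to cullins, the scaffolds of a large family of ligases. Its peak spanned 13037978 to 13038493 on chromosome 7, with the summit 40 bp downstream of the RefSeq start. It held 76 anti-IFNAR1 fragments against 1 control fragment at the site, with a fold of 11.2 (q of 6.51e-17), rank 48 of the 6395 peaks. Its fold was the highest of the 52 member peaks. The ratio of 21.5 rests on that 1 control fragment, and its exact 95% interval ran from 3.74 to 860. The other NEDD8 enzyme gene, Ube2f, was not listed.

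By q, Ube2q1, a conjugating enzyme gene, came next among the Ube2 genes with 87 against 3 fragments, a fold of 6.4 (q of 7.83e-11). Its summit lay 603 bp upstream of the RefSeq start. Ube2s, which extends ubiquitin chains for the anaphase-promoting complex, had 88 anti-IFNAR1 fragments against a control level of 4.48, a fold of 4.72 (q of 1.34e-07). Its partner Ube2c, which starts those chains, was not listed. Of 5 enzymes of degradation from the endoplasmic reticulum, 3 were listed, Ube2g1 and Ube2g2 among them, and Ube2j1 and Ube2j2 were not. Ube2g1 had 91 against 5 fragments and a fold of 4.45, and Ube2g2 had 27 against a control level of 0.236 and a fold of 6.98. Ube2b, which ubiquitinates histone H2B and acts in DNA damage tolerance, had 68 over 3.07 and a fold of 4.97.

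Of the enzymes of ubiquitin-like modifiers, Ube2l6 had a weaker peak than Ube2m. Ube2l6, the conjugating enzyme of ISG15, had 27 anti-IFNAR1 fragments against a control level of 0.944, a fold of 4.44 (q of 0.0075), rank 5066.

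Ube2n, which with a Ube2v partner builds chains used in NF-κB signalling, had 78 against 5 fragments, a fold of 3.84 (q of 1.39e-05). The partner gene Ube2v1 had 55 against 2 fragments, a fold of 5.52 (q of 2.19e-06), whereas the other partner, Ube2v2, was not listed. Ube2d3 and Ube2d2a, enzymes that work with many ligases, had folds of 3.63 and 3.37. The peaks of Ube2d2a and Ube2z, an enzyme charged by Uba6, lay in coding exon 1, 167 and 286 bp from the TSS, and were the only Ube2 peaks outside the TSS section.

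Among the Usp genes, no fold exceeded 6.44. Usp38 had the smallest q, 5.24e-08, with 63 against 2 fragments, a fold of 6.27 and a ratio of 8.9 (exact 95% interval 2.36 to 75.1). Usp34, a regulator of axin in Wnt signalling, had 76 anti-IFNAR1 fragments against a control level of 3.78 and a fold of 4.71, with its summit 631 bp upstream of the RefSeq start. Usp48 had the highest pileup of the 52 peaks, 26.01, with 92 fragments against a control level of 5.9 and a fold of 3.91. Usp15, a deubiquitinase of TGF-β signalling, had a fold of 5.23. Usp47, a deubiquitinase of DNA polymerase beta, had 42 against 1 fragment and a fold of 6.44, the highest of the class.

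Usp14, the deubiquitinase that sits on the 19S particle, had 37 against 1 fragment, a fold of 5.73 (q of 2.85e-05). Of the 6 genes grouped here as histone deubiquitinases, Usp3 and Usp22 were listed, with folds of 3.37 and 3.42. The interval of that share (9.68 to 70%) includes the 21.1% of all protein-coding genes. Usp37 and Usp53 had the lowest folds of the class. Usp37 had 72 against 6 fragments and a fold of 3.05. Usp53 had 85 against 9 fragments and a fold of 2.5, the highest control background and the lowest fold of all members. Usp7, Usp8, Usp10, Usp25 and Usp5 were among the 37 Usp genes without a listed peak.

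Members with more than 1 peak besides Psmb8 were Usp9x and Usp6nl. Usp9x, an X-linked protease gene, had a TSS peak with 56 anti-IFNAR1 fragments against a control level of 3.3 (fold 3.91) and a peak of higher fold but lower pileup, 579 bp from the TSS within an exon of the 5′ UTR, with 44 over 1.65 (fold 5.07, q of 6.12e-05). Usp6nl, which encodes no deubiquitinase, had peaks of 5.91-fold and 5.39-fold at separate starts. Of the other X and Y linked genes, Usp51 was listed through a peak in coding exon 2 with 16 anti-IFNAR1 fragments over the genome rate and a fold of 4.88. Usp9y, Usp11, Usp26 and Usp27x were not listed.

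The weakest peak by coverage was that of Usp29, an imprinted gene next to Peg3. It held 11 anti-IFNAR1 fragments over the genome rate, with a pileup of 3.11, a fold of 3.63 (q of 0.0107). It lay 40918 bp from the TSS, in an exon of the 5′ UTR, and was the only one of 40 member peaks with a RefSeq start in the table whose summit was over 1 kb from it.

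**Figure D2:**
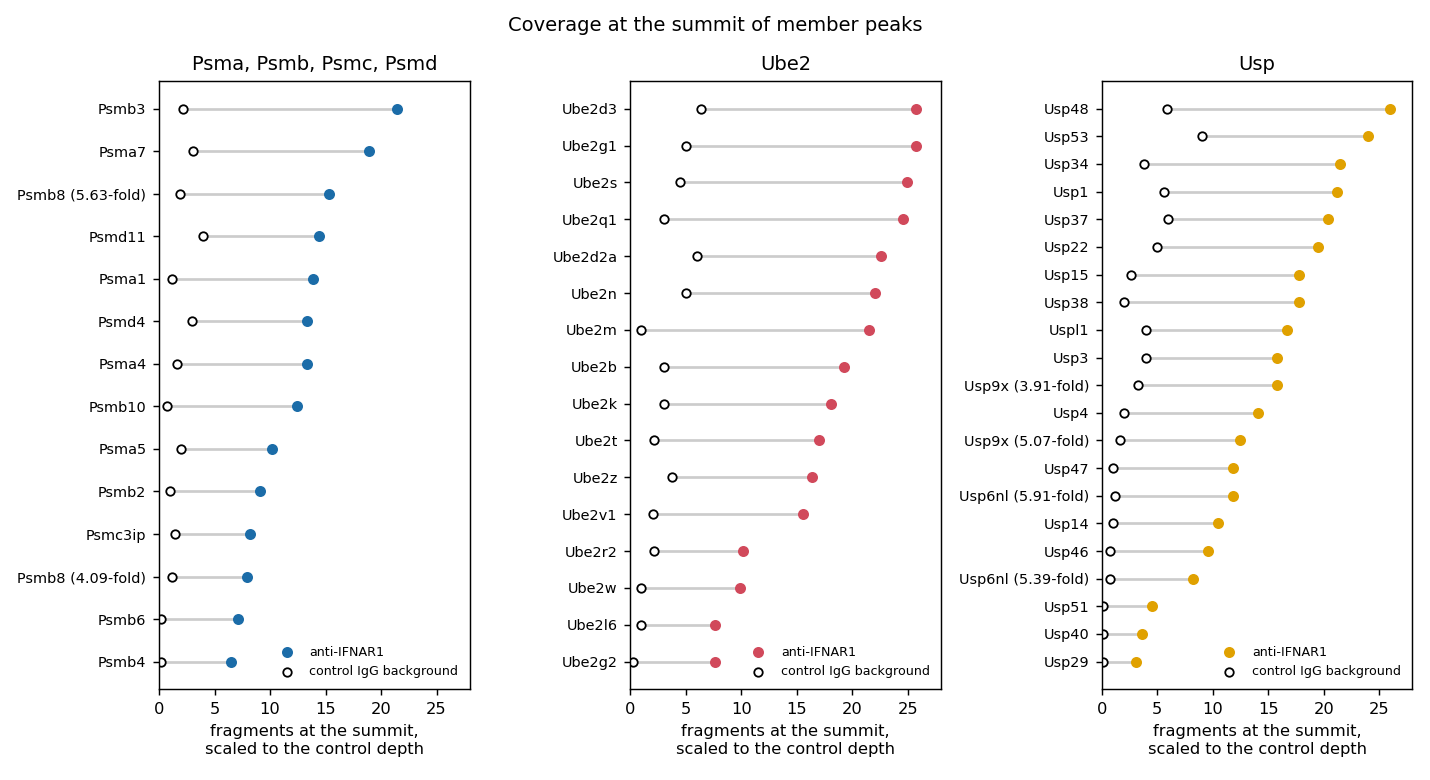
Filled points give the pileup at the summit of the member peaks, without 1 of the 52 that is not shown, on the anti-IFNAR1 side, scaled to the control depth, and open points the control IgG background, for the proteasome names, the Ube2 genes and the Usp genes. Genes with 2 peaks carry the fold of each. The filled point lies right of the open point in every row because the list was chosen that way, and the highest pileups of the Ube2 and Usp panels reach 25.72 and 26.01, against 21.48 for the proteasome names.

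The Ube2 peaks had the highest median coverage of the 3 classes. The median pileup was 18.1 at the 17 Ube2 peaks, 15.8 at the 21 Usp peaks and 12.9 at the 14 proteasome peaks, against 12.2 over all 5202 listed peaks of protein-coding genes. Of the Ube2 peaks, 10 lay above 16.7, the upper quartile of protein-coding peaks, as did 8 of the Usp peaks and 2 of the proteasome peaks. The Ube2 peaks also had the highest control background, with a median of 3 fragments, against 2 at Usp peaks, 1.53 at proteasome peaks and 1.65 over protein-coding peaks. The median fold was 5.21 at proteasome peaks, 4.72 at Ube2 peaks and 4.71 at Usp peaks, against 4.74 over protein-coding peaks. Over all 52 peaks, 27 lay above that 4.74, and the median was 4.83. Without the pseudocount this order turned, with a median ratio of 6.96 over all members against 7.63 over protein-coding peaks. The class medians were then 8.06 at proteasome, 6.03 at Ube2 and 7.07 at Usp peaks. Peaks are not replicates of a treatment, and no test was made over them.

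**Figure D3:**
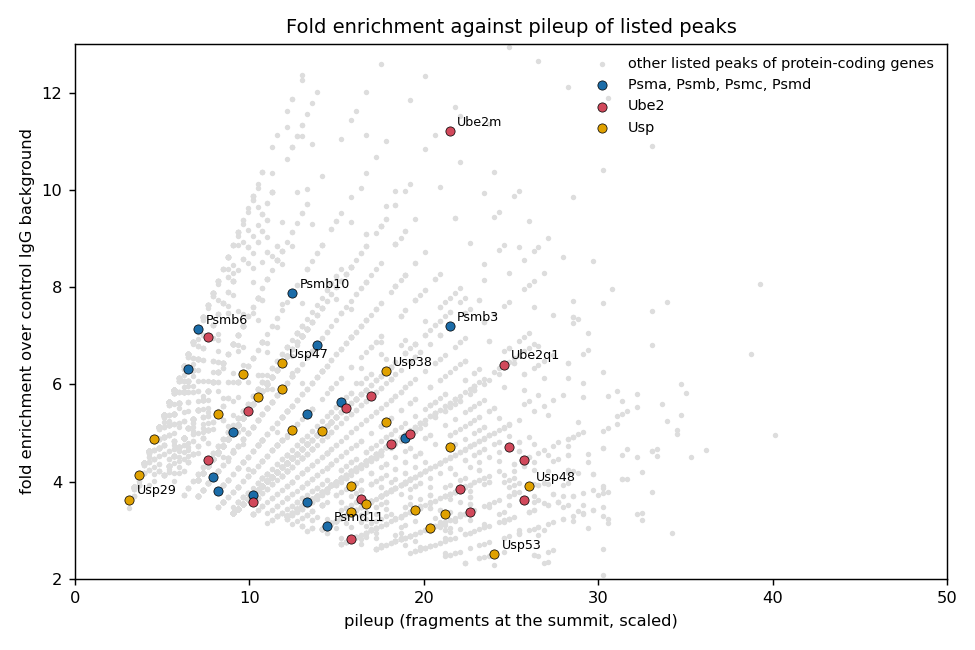
Each point is 1 listed peak of a protein-coding gene, with the pileup at the summit on the x axis and the fold over the control IgG background on the y axis, members coloured by class and other genes grey. A further 20 peaks lie outside the axes. Ube2m stands highest of the members at a fold of 11.2, Usp53 lowest at 2.5, and each diagonal line of points is 1 value of the control background.

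Low folds of members stood at sites with more control coverage. Across the 52 peaks, the Spearman rank correlation of fold with control background was -0.65, and across all 5202 protein-coding peaks it was -0.58. Fold is computed from that background, so the relation is a description of the list. The rank correlation of pileup with fold was -0.47 at the Usp peaks, -0.12 at the Ube2 peaks and 0.01 at the proteasome peaks, over 21, 17 and 14 peaks that share the same pooled libraries.

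In the exact interval of the ratio, which counts the fragments on the anti-IFNAR1 side and, other than at the 4 peaks with the genome rate, those on the control side, the lower bound was above 1 for all 52 member peaks, and for all 5202 protein-coding peaks. The same fragments placed the peaks on the list, so the bounds are tilted towards a gain. The intervals cover counting error only, and copies made by PCR do not count as independent molecules. The site alone was also tested, with its control fragments counted where known and otherwise set to the most the background allows. There, a one-sided exact binomial test gave 16 of the 52 member peaks a p no larger than 6.9e-05, the largest p in the list. These were 7 Ube2, 5 proteasome and 4 Usp peaks (30.8% in all), against 22.3% of protein-coding peaks. Counted as genes, they were 12% of the 133 members, against 5.20% of all protein-coding genes. They included Ube2m, Ube2q1, Psmb3, Psmb10, Psmb8 and Usp38. Ube2n, with a p of 7.06e-05, lay just outside. Psmb6, Psmb4, Ube2l6 and Usp29 were among the 16 member peaks with fewer than the 39 fragments this test needs with 0 control fragments.

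Peaks of members lay mostly at gene starts, as did those of protein-coding genes in general. The file placed 47 of 52 member peaks in the TSS section (90.4%, Wilson 95% interval 79.4 to 95.8). For all peaks of protein-coding genes it was 81.4%, which lies inside that interval. The TSS section reaches from -997 to 99 bp relative to a transcript start. All 14 proteasome peaks lay there, with 15 of 17 Ube2 peaks and 18 of 21 Usp peaks. Of the rest, 3 lay in coding exons and 2 in 5′ UTR exons. No member peak lay in an intron, which held 7.57% of protein-coding peaks.

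**Figure D4:**
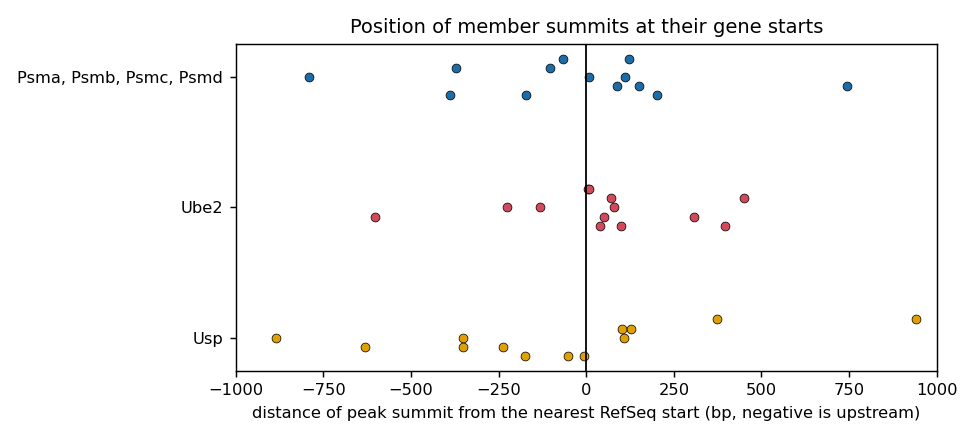
Points give the distance from the nearest RefSeq start to the summit of each member peak, by class, in bp, without the Usp29 peak, which lies beyond 1 kb, with negative values upstream. In the Ube2 row 3 summits lay upstream, in the proteasome row 6 and in the Usp row 8.

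For 40 of the 52 peaks the promoter table holds a start of the gene. The summit lay within 250 bp of it for 25 of them, 9 proteasome, 9 Ube2 and 7 Usp peaks. The median summit lay 24.5 bp downstream. Few peaks that bore a member's name were shared with another coding gene's start. Of the 50 member peaks on chromosomes in the table, 2 had one within 1 kb (4%), against 12.7% of protein-coding peaks. The 12.7% also counts a gene's own start where the file and RefSeq name it differently, which can raise it. The 2 member peaks were those of Psma7 with Ss18l1 and Usp37 with Cnot9, each pair on opposite strands. Peaks at the starts of Psmc2 and Psmd13 are not in this count, since the file named them for Dnajc2 and Sirt3.

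Promoters of members were rich in GC and CpG, as those of listed genes generally were. The median GC content was 63.5% in the 38 listed members with a promoter and 60.5% in the 68 unlisted members, against 62.3% in all listed protein-coding genes and 56.3% in all protein-coding genes. The CCGGAAG motif was found in 24.5% of all members with a promoter, against 12.9% of all protein-coding genes and 19.2% of the listed ones. It was found in 9 of 38 listed members and 17 of 68 unlisted members. TGACNNNGC, the core of the element bound by Nfe2l1, which drives proteasome genes when the proteasome is impaired, was found in 3 of 38 listed members and 19 of 68 unlisted members, against 17.6% of all listed protein-coding genes and 14.8% of all protein-coding genes. Of the 11 listed genes that encode proteasome subunits and have a promoter in the table, Psmb6 alone held it.

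Other genes of the pathway were listed at a similar share. Of 61 genes in 8 lists set up by role, 22 (36.1%) had a listed peak, against 21.1% of all protein-coding genes. Both the members and these lists were chosen with earlier results of these data known, so the likeness of the shares is a description only. Deubiquitinases of other families had 10 of 24, among them Cyld, with a fold of 3.93, and Tnfaip3, with 3.82, both of which restrain NF-κB signalling. Otud5 had a fold of 5.83 and Otud4 5.55. The E1 enzymes had 3 of 9. These were Uba1, the main E1 of ubiquitin, with folds of 6.38 and 5.85, Nae1, a subunit of the E1 of NEDD8, with 6.55, and Uba7, the E1 of ISG15, with 6.44. Uba3, the other subunit of the E1 of NEDD8, was not listed.

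Of the activators and the inhibitor of the proteasome, 2 of 5 were listed. The interval of that share, 11.8 to 76.9%, includes the 21.1% of all protein-coding genes, and the same holds for the regulators of proteasome genes below. Psme2, a subunit of the interferon-induced activator PA28, held 120 anti-IFNAR1 fragments against a control level of 5.66, with a fold of 5.24 (q of 1.83e-11), while its partner Psme1 was not listed. Psme4 had a fold of 4.13 on 13 fragments. Of the regulators of proteasome genes, 2 of 5 were listed, Nfe2l2 with a fold of 6.47 (q of 1.41e-11) and Nfe2l1 with a fold of 2.97 (q of 0.00578). Of the assembly factors, Psmg2 was listed, with a fold of 3.82, and Pomp was not. Among genes that encode ubiquitin, Rps27a was listed with a fold of 4.99. Of the antigen loading genes, Tap2 and Erap1 were listed and Tap1 and Tapbp were not. The list of conjugating enzymes with other names had 1 of 5, Atg10, with 2 peaks in an intron, 129636 and 130237 bp from the TSS.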

How the data were processed

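ATAC-seq libraries from 4 anti-IFNAR1 and 3 control IgG samples, grouped by the treatment label, were compared by the authors. The genome build was mm10, and the tools named were MACS2 2.1.0.20150420, BWA 0.7.9a, bedtools, DESeq2 and DiffBind 2.0.7, per the submitters' processing notes, which give neither role nor order. Shifting of cut sites and handling of duplicates are not given in the sources used here. A single peak list was deposited by the authors in the layout of MACS2, named IFN against Ig, with pileup (a coverage signal, scaled by the caller), fold enrichment (a ratio over the control background) and −log10 p and q values, whose damaged headers were read from the layout. The libraries behind either side are not named. Gene names and sections are those of the file, and positions are as the file gives them.

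Every pileup in the deposited list was a whole multiple of 0.283 (tolerance 0.005), which gave back whole fragments. The control background followed from the fold and came from the site, from 1 kb or 10 kb around it, or from the genome rate. A Poisson −log10 p recomputed from both came within 0.000157 of the deposited one. Depth per sample is unknown. Exact conditional intervals of the ratio (95%) were computed for the whole list with SciPy 1.17.1 and tested on simulated data. No column carries a sample, so the fits planned for values per sample were not made.

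All 49 member names matched RefSeq (GRCm38.p6), which also gave gene totals, promoters and starts, and 38 had a promoter in the table. A gene counted as listed if at least 1 peak bore its name. Genes named with values follow a rule: in each class the 5 smallest q and the 2 smallest folds, every gene with several peaks or with its strongest peak outside the TSS section, and every listed gene of the catalytic, immunoproteasome, NEDD8, ISG15, NF-κB chain and proteasome-bound roles. Some genes are counted but not reported by name here. Other genes were named after their values were seen. The members and lists were chosen with earlier results of these data known. Alternatives were a stricter q, a pileup minimum, another assignment, TSS peaks, 1 peak per gene, no pseudocount, the exact test at the site and other gene totals.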

Additional observations from a re-analysis of the deposited data

How the results depend on the processing

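No paired analysis was possible because no column carries a sample, and for the same reason no replicate could be left out. Leaving out names that match the prefix only, for all 4 of them, was chosen after the data were seen. The count of listed members was 43 at a q of 0.01 (18.1% of all protein-coding genes were then listed), 38 with a pileup of at least 10 (14.2%) and 45 with TSS peaks alone (18.5%). In the exact test at the site it fell to 16 of 133 (12%, against 5.20% of all genes), with 5 proteasome, 7 Ube2 and 4 Usp genes. Control fragments at the site that are unknown were set to the most the background allows, so these counts are minima. With a listed peak within 1 kb of a RefSeq start, 12 of the 43 Usp genes with a start in the table were listed (27.9%), against 19 of 56 by name (33.9%), and 23.4% of all genes with a start. Of those 19, 6 had no start in the table, and the Usp29 summit lay 41269 bp from its start. The same count gave 14 of 33 proteasome names (42.4%, against 32.5% by name) and 14 of 30 Ube2 genes (46.7%, against 45.9%). Without the pseudocount the median fold was 6.96 over all members, 8.06 for proteasome, 6.03 for Ube2 and 7.07 for Usp peaks, against 7.63 over protein-coding peaks. Counting a RefSeq start within 1 kb, for genes with a start in the table, put 97.5% of all member peaks and 100% of Ube2 peaks at a start. The other medians, shares and counts stayed within 1.5 times the count or within the interval of the value given above. The median control background at member peaks was 2.06 fragments, which limits the precision of each ratio.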
